A study of Mus musculus with 21 samples.

Results

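The libraries described here come from adult mouse hearts in which Lmna had been targeted for deletion, and they set 6 mice with a Uprt transgene (Lmna F/F Uprt) against 4 mice without it (Lmna F/F no Uprt). They were chosen by genotype label alone and are 10 of the 21 libraries of the study. The other 11 are 8 Lmna +/+ Uprt and 3 Lmna +/+ no Uprt mice, which serve below as a second, separate set of animals. Lmna encodes lamins A and C, filament proteins that line the inner face of the nuclear envelope, and F is the floxed allele that Cre recombinase removes.

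SLAM-IT-seq marks RNA made during a short labelling window. Uracil phosphoribosyltransferase (Uprt), a parasite enzyme that mammalian cells largely lack in active form, turns injected 4-thiouracil into a nucleotide that RNA polymerases build into new transcripts. Iodoacetamide then alkylates the thiol group, and reverse transcription reads the base as C in place of T. A read with a T>C conversion therefore stems from labelled RNA or from background, which is made up of sequencing errors, sequence variants and any labelling without the transgene. Libraries of mice that received 4-thiouracil but carry no Uprt measure that background in the same tissue.

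All 10 mice carried Myh6MCM Tg/0, a tamoxifen-inducible Cre driven by the promoter of the cardiomyocyte gene Myh6. Tamoxifen was given to every mouse on 4 days at 6 to 8 weeks of age, and 4-thiouracil followed 2 weeks later at 10 mg per g of body weight. Hearts were collected 6 hours after that injection, and RNA came from the free wall of the left ventricle. The groups with Uprt were Uprt Tg/0. The Lmna F/F Uprt mice were 4 females and 2 males, and the Lmna F/F no Uprt mice were 2 females and 2 males. Other cells of the ventricle lack the Myh6-driven recombinase, the promoter of the Uprt transgene is not given in the sources used here, and bulk RNA does not tell fewer labelled cells from less labelling per cell. Each library is labelled as 1 mouse, and all stem from the same sequencing pool.

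Reads were counted by the authors over 3′ UTR intervals that carry transcript IDs and no gene names. Of 208307 intervals, 120310 remained after overlapping intervals of a strand were reduced to the one with the most reads, and these are called loci. The 10 libraries held 33830412 to 46957455 reads on them, of which 1209358 to 2253872 carried a T>C conversion. Mitochondrial loci took 23.7% to 31.0% of the reads and the most read nuclear locus 9.81% to 12.3%. Nuclear loci are given by position on mm39. Neither Lmna nor cell type markers could be found among them without gene names, so the deletion and the cell makeup of the samples were not checked here. Mitochondrial loci are named because both ends of all 16 intervals equal those of a gene in the RefSeq table of GRCm38.p6.

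The first question was how much the transgene raised labelling over background in the deleted hearts. On nuclear loci the share of reads with a conversion was 5.04% in the lowest, 5.15% in the median and 5.81% in the highest of the 6 Uprt libraries. In the 4 libraries without Uprt it was 3.18%, 3.72%, 3.37% and 3.85%. Every Uprt library thus lay above every library without the transgene. The means were 5.30% ± 0.330 (SD, n = 6) and 3.53% ± 0.307 (SD, n = 4), a ratio of 1.50 (two-sided exact permutation p = 0.00952, the smallest that 6 against 4 libraries allow, and 0.0171 adjusted over 9 comparisons).

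Conversions per sequenced T take the number of T bases that were read into account. On nuclear loci 0.273% ± 0.0223 of read T bases were converted with Uprt (SD, n = 6), and 0.174% ± 0.0164 without it (SD, n = 4). The ratio was 1.57, and the exact permutation p was again 0.00952. The Uprt libraries ranged from 0.253% to 0.304% and those without from 0.156% to 0.192%, with no overlap. Replicates 3 and 5 of the Uprt group, a female and a male, were the highest of the 6 by both measures.

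Mitochondrial transcripts, which are made by a polymerase of their own inside the organelle, showed a smaller difference that depended on the measure. Their T>C read share averaged 4.50% ± 0.360 in the Uprt group (SD, n = 6) against 3.84% ± 0.699 (SD, n = 4), and the groups overlapped (exact permutation p = 0.114, adjusted p = 0.129). Females had 4.10% to 5.01% with Uprt against 3.24% and 3.36% without. The males had 4.07% and 4.68% with Uprt against 4.01% and 4.76% without, and the test had no sex term. Whether the gain differs between the sexes was not tested. Conversions per T averaged 0.0668% ± 0.00389 in the Uprt group against 0.0514% ± 0.00429, a ratio of 1.30. These did not overlap, at 0.0629% to 0.0729% against 0.0464% to 0.0568% (exact permutation p = 0.00952). Without Uprt, conversions per T were lower on mitochondrial than on nuclear loci (0.0514% against 0.174%), while the read share was not (3.84% against 3.53%).

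**Figure D1:**
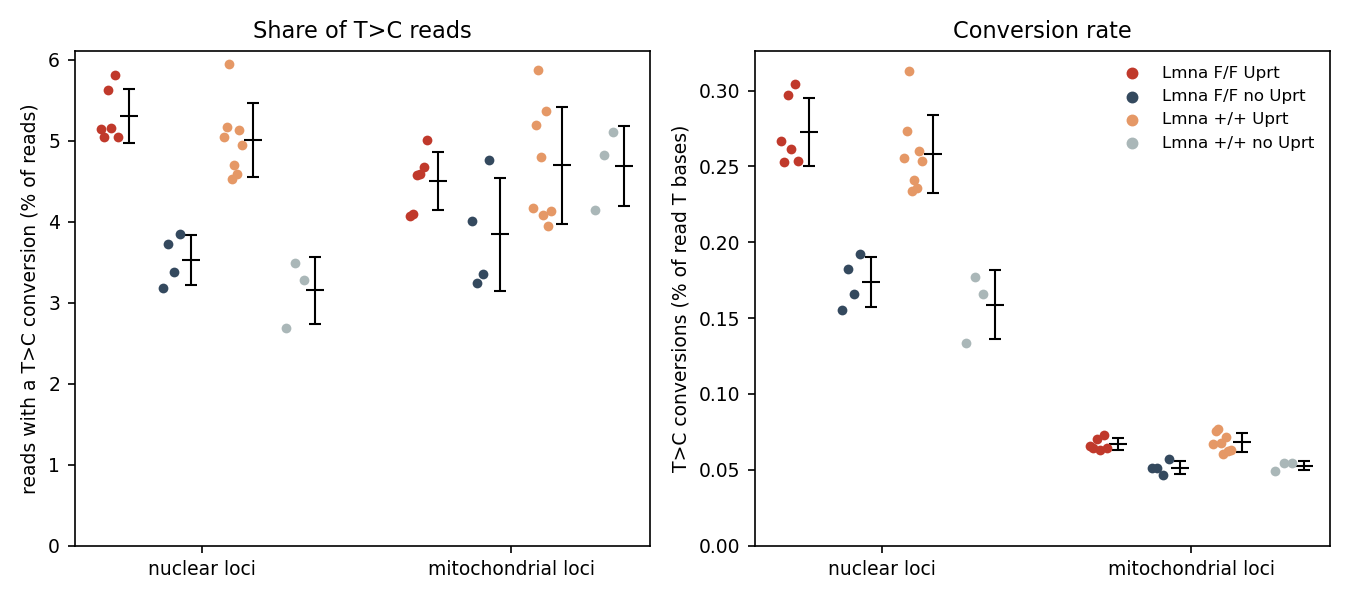
T>C read share (left, percent of reads) and T>C conversions per read T base (right, percent) on nuclear and mitochondrial loci, 1 point per library, with the mean and SD of each group beside the points. On nuclear loci the Lmna F/F Uprt libraries lie at 5.04% to 5.81% and 0.253% to 0.304%, above the Lmna F/F no Uprt libraries in both panels, while the mitochondrial read shares of the groups overlap.

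A labelled molecule can carry more than 1 conversion, so the number per T>C read was compared too. On nuclear loci it averaged 1.07 ± 0.0193 in the Uprt group (SD, n = 6) against 1.04 ± 0.00966 (SD, n = 4), with overlapping ranges of 1.05 to 1.10 and 1.03 to 1.05 (exact permutation p = 0.0286, adjusted p = 0.0367). Over all loci the means were 0.866 and 0.805, also with an exact permutation p of 0.0286 (n = 6 and 4), which rose to 0.0714 without replicate 1 or replicate 4 of the group without Uprt. This difference of 0.0611 was 0.0209 in females alone (exact permutation p = 0.4, 4 against 2) and 0.108 in males alone (exact permutation p = 0.333, 2 against 2), and the groups differ in sex makeup. On mitochondrial loci it was 0.258 ± 0.0299 and 0.235 ± 0.0464, a difference within the spread (exact permutation p = 0.343, n = 6 and 4). Values below 1 arise because a read counts as T>C wherever its conversion lies, while conversions were counted over the T positions of the interval alone, as far as these numbers show. Read share and conversions per T are therefore given side by side for the loci below.

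The rise was then followed locus by locus with edgeR's quasi-likelihood test on converted against unconverted reads, in the 12943 loci with a mean of at least 100 reads in the 10 libraries. With Uprt these odds rose at 5402 loci (41.7%) and fell at 19 (0.147%), at an adjusted p under 0.05 with sex as a term. By conversions per T, 5653 loci were higher (43.7%) and 20 lower (0.155%). The same locus was called higher by both measures in 5147 cases, and none was called in opposite directions. The log2 odds ratio was above 0 at 89.1% of all tested loci, with a median of 1.20 and quartiles of 0.50 and 1.94, so the shift reached many loci without a call.

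At the typical locus the median share over all tested loci was 6.23% with Uprt and 2.64% without. The loci called higher had a median log2 odds ratio of 1.88 and gained a median of 5.33 percentage points, with quartiles of 3.09 and 8.27. Every Uprt library lay above every library without Uprt at 4031 loci (31.1%), and below at 4 (0.0309%). At 209 tested loci, no T>C read was seen in any of the 4 libraries without Uprt. Of these, 95 were called higher, beside 41.7% of all tested loci. Across the autosomes the share of loci called higher ran from 38.3% to 47.9%, and it was 35.9% on the X chromosome, where 147 of 409 loci were called. Adjoining loci can share reads, but only 222 tested loci lay within a read length of another on their strand. Of these, 33.3% were called higher, against 41.9% of the other tested loci.

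**Figure D2:**
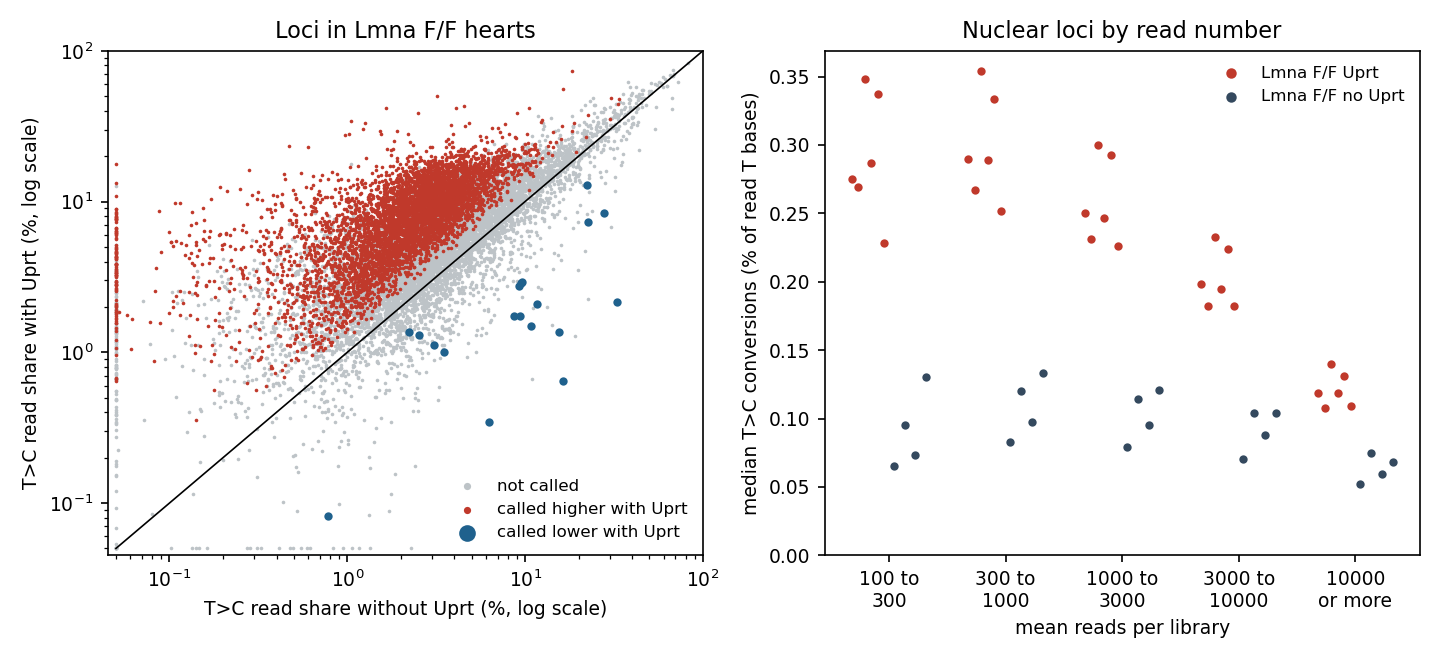
Left, mean T>C read share of each of 12943 loci in Lmna F/F libraries with Uprt against those without (percent, log axes, values under 0.05% drawn at 0.05%), with the line of equal shares; most of the 5402 loci called higher lie at background shares of a few percent, and loci with high shares in both groups lie on the line. Right, median T>C conversions per read T over nuclear loci binned by mean reads, 1 point per library; the groups are separate in each bin and both decline toward the most read loci.

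Labelling differed with how strongly a locus was read. Among 5012 nuclear loci with 100 to 300 reads, the median locus had 0.291% ± 0.0450 conversions per T in the Uprt group (SD, n = 6) against 0.0910% ± 0.0290 (SD, n = 4). Among the 337 nuclear loci with at least 10000 reads these values were 0.121% ± 0.0126 and 0.0636% ± 0.00979. The groups did not overlap in any of the 5 bins (exact permutation p = 0.00952 in each, n = 6 and 4). The ratio between the groups fell from 3.20 to 1.90 along the bins and the median log2 odds ratio of the read share from 1.34 to 0.67. The share of loci called higher went the other way, from 22.1% to 65.9%. Calls also follow read depth, with a median of 741 mean reads at loci called higher and 285 at loci not called. In the Lmna +/+ mice the median locus of the same 2 outer bins had 0.276% with Uprt against 0.0785% without, and 0.111% against 0.0576%.

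Longer intervals had more conversions per T in both groups. At intervals under 100 bases the median conversions per T were 0.183% ± 0.0291 in the Uprt group (SD, n = 6) against 0.0472% ± 0.0149 (SD, n = 4), and at intervals of 3000 bases or more they were 0.354% ± 0.0519 and 0.118% ± 0.0232. The ratio between these group values was highest at the shortest intervals, at 3.87, and was 2.54 to 2.99 in the 4 classes of longer ones. By the median log2 odds ratio per locus, the order of the outer classes was reversed. In conversions per T it was 1.08 at the shortest and 1.46 at the longest intervals, and in read share 0.97 and 1.45. The loci called higher were 28.0% of the 651 shortest and 55.1% of the 1923 longest. Loci of intervals with at least 35% T had 0.351% ± 0.0532 and 0.123% ± 0.0256, against 0.187% ± 0.0287 and 0.0483% ± 0.0124 where under 20% of the interval is T. Length, T content and read number were not separated from each other here.

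The most read nuclear loci, picked by reads alone, show the difference at the highest precision. Of the 20 loci with the most reads, 15 were called higher and none lower by edgeR's test of the read share, beside 41.7% and 0.147% of all loci. Nearly all had background shares of a few percent or less. At chr15:76899687-76900125 the share was 1.23%, 1.31% and 1.37% in the lowest, median and highest Uprt library. The 4 libraries without Uprt had 0.621%, 0.664%, 0.705% and 0.672%. The log2 odds ratio was 0.97 ± 0.07 (SE, edgeR adjusted p = 3.6e-06), and no library with Uprt came near those without.

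The largest share among the 20 was at chr8:94906053-94906953, with 11.7%, 15.7% and 18.0% as the lowest, median and highest value with Uprt. Without Uprt it had 4.17%, 6.90%, 6.72% and 7.48%, so this locus also had a high background (log2 odds ratio 1.42 ± 0.20, edgeR adjusted p = 0.000154). The short interval chr14:55179378-55179437 had the largest odds ratio of the 20. Its share was 1.07% to 1.79% with Uprt and 0.360% to 0.511% without (log2 odds ratio 1.62 ± 0.15, edgeR adjusted p = 1.46e-05). Between these, chr10:53220119-53222083 went from 3.09% to 3.88% without Uprt to 6.96% to 9.28% with it (log2 odds ratio 1.30 ± 0.11).

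The most read nuclear locus of all, chr17:40157244-40159092, was not called. Its share was 3.60% to 4.29% with Uprt and 3.73% to 3.98% without, so that the groups overlapped (log2 odds ratio 0.07 ± 0.06, edgeR adjusted p = 0.335). Reads that map to several places made up 15.4% of its reads. The second, chr9:66935174-66935445, overlapped as well, at 4.50% to 6.13% against 4.44% to 5.29% (log2 odds ratio 0.20 ± 0.10, edgeR adjusted p = 0.132), but was called without replicate 1 of the Uprt group (0.30, edgeR adjusted p = 0.0144). At chr3:90418344-90418637 the groups did not overlap, at 1.61% to 1.93% against 1.43% to 1.57%, but the read share was not called (edgeR adjusted p = 0.0993). Its conversions per T were called, with a log2 odds ratio of 0.53 and an edgeR adjusted p of 0.00537.

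At the remaining 2 of the 20, single mice differed by far more than the groups. At chr1:135779811-135779998 replicates 1 and 6 with Uprt had 12.7% and 13.0%, and the other 4 had 1.28% to 2.13%. Without Uprt replicate 3 had 13.3% and the other 3 had 0.763% to 0.850%. A high and a low set of mice was thus present on both sides, and the locus was not called (edgeR adjusted p = 0.395); without replicate 3 of the mice lacking Uprt it was (log2 odds ratio 2.24, edgeR adjusted p = 0.0388). At chr8:69357159-69359586 the 6 Uprt libraries lay between 2.87% and 4.06%, while without Uprt replicate 1 had 1.52% and the other 3 had 10.9% to 11.2% (log2 odds ratio -1.18 ± 0.46, edgeR adjusted p = 0.0527). Without that replicate 1 the log2 odds ratio was -1.79 and was called (edgeR adjusted p = 3.13e-06). In Lmna +/+ mice without Uprt the same locus had 1.21%, 11.5% and 10.8%, and with Uprt 2.57% to 4.00%.

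**Figure D3:**
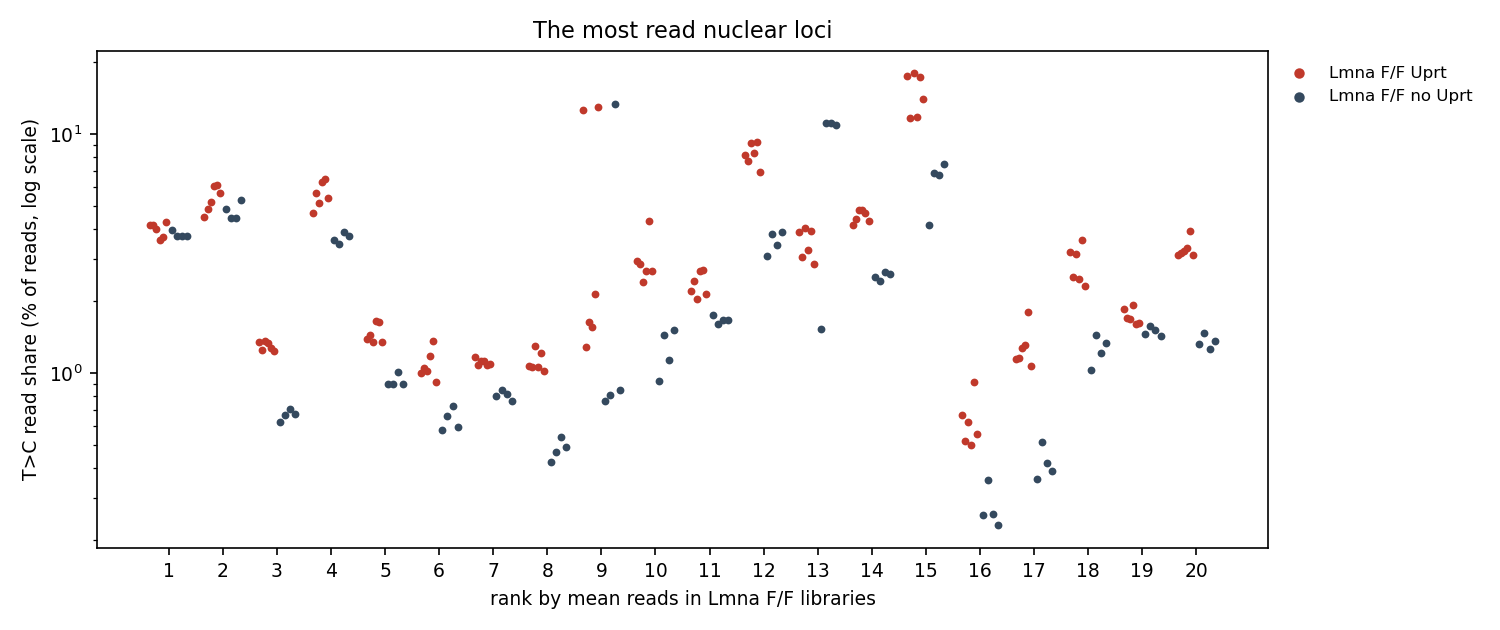
T>C read share (percent of reads, log axis) at the 20 most read nuclear loci, ordered by mean reads, 1 point per library. In 15 of the 20 the Uprt libraries are called higher; at chr1:135779811-135779998 3 mice of both groups lie at 12.7% to 13.3% above the others, and at chr8:69357159-69359586 replicate 1 without Uprt lies at 1.52%, below the other 3 of its group at 10.9% to 11.2%.

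High shares without the transgene were not rare. Of the tested loci, 628 had a T>C share of 20% or more in at least 1 Lmna F/F library without Uprt, and 278 of them were under 5% in another library of the 10. Of the 628, 23 were called higher and 8 lower, beside 41.7% and 0.147% of all tested loci. The remaining 5379 loci called higher were under 20% in each of the 4 libraries.

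Of the 337 nuclear loci with at least 10000 reads, 222 (65.9%) were called higher and 0 lower by edgeR, beside 41.7% and 0.147% of all tested loci. Calls also follow read depth, as given above. The following loci had the largest log2 odds ratios in conversions per T among 323 of the 337, so their values are a description without a test. The other 14, whose highest share without Uprt was at least 5 times the lowest, were left out of this ranking. At chr6:72409782-72411959 the read share was 9.36%, 13.96% and 17.3% in the lowest, median and highest Uprt library and 1.69%, 3.09%, 1.21% and 4.58% in those without. At chr5:125463029-125463120 it was 12.3% to 19.9% against 2.30% to 4.15%. At chr19:23142277-23145498 it was 10.1% to 17.3% against 1.94% to 3.98%. At these 3 loci each Uprt heart had at least 9.36% T>C reads and each heart without Uprt at most 4.58%.

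At chr1:43162234-43162673 the share was 11.03% to 14.8% with Uprt and 1.85% to 3.27% without, the tightest Uprt range of this set. At chr11:98275372-98275779 replicates 1, 3 and 5 with Uprt had 7.21%, 7.22% and 8.48%, and replicates 2, 4 and 6 had 4.69%, 4.29% and 4.57%. Without Uprt it had 0.519% to 1.70%, so both sets of Uprt mice lay above the background. At chr4:148086244-148086536 the split was wider still. Replicates 4, 5 and 6 had 23.6%, 28.8% and 27.7%, and replicates 1, 2 and 3 had 1.53%, 2.30% and 1.20%, against 0.686% to 0.904% without Uprt. Of the 8 Lmna +/+ Uprt mice, 4 had 24.0% to 27.9% there and 4 had 0.509% to 1.30%, while the 3 mice without Uprt had 0.347% to 1.08%.

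At the other end, several of the same 323 loci were picked for the lowest log2 odds ratio in conversions per T, again as a description. The ranking leaves out chr8:69357159-69359586, described above, which had a log2 odds ratio of -0.94 in conversions per T. At chr12:110864548-110864985 it was 4.08% to 5.18% against 4.33% to 4.72%, with 58.9% of reads mapping to several places. At chr6:126798684-126798981 it was 2.23% to 3.96% against 3.28% to 4.59%, and at chr9:61820566-61820605 1.76% to 2.12% against 1.66% to 2.62%. At chr4:32964888-32965232 it was high in both groups, at 11.8% to 23.7% against 13.0% to 19.0%. Library ranges of the groups overlapped at each of these loci.

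The mitochondrial genome gave 14 loci with enough reads, which are the 2 ribosomal RNAs, the structural RNAs of the mitochondrial ribosome, and 12 transfer RNA intervals. The read share was called higher at 12 of the 14 and conversions per T at 8, with none called lower (edgeR adjusted p under 0.05), beside 41.7% and 43.7% of all tested loci. For mt-Rnr2, the large ribosomal RNA, the share was 1.28%, 1.35% and 1.51% in the lowest, median and highest Uprt library and 1.09%, 1.07%, 1.02% and 1.20% without Uprt. The groups did not overlap (log2 odds ratio 0.35 ± 0.05, edgeR adjusted p = 0.000117). For mt-Rnr1, the small ribosomal RNA, it was 0.851%, 1.09% and 1.25% against 0.640%, 0.859%, 0.617% and 0.728%, where the highest library without Uprt passed the lowest with it (log2 odds ratio 0.63 ± 0.11, edgeR adjusted p = 0.000745). DESeq2 gave the same odds ratios for both with standard errors of 1.35 and 1.36 and no call (adjusted p = 0.849 and 0.729).

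Transfer RNA intervals are 59 to 75 bases long and lie between the longer mitochondrial genes, and a read there covered 0.00919 to 13.4 T bases of the interval on average, against 21.3 at mt-Rnr1 and 22.3 at mt-Rnr2. At TrnM, for methionine, the share was 10.3%, 13.6% and 15.5% in the lowest, median and highest Uprt library and 5.001%, 4.44%, 6.49% and 7.37% without Uprt. The log2 odds ratio was 1.36 ± 0.17 by reads (edgeR adjusted p = 8.57e-05) and 2.40 by conversions per T (edgeR adjusted p = 2.18e-05). At TrnI, for isoleucine, the share was at least 14.2% with Uprt and 10.8% to 11.8% without, and at TrnL1, for leucine, it was 5.95% to 7.06% against 3.52% to 4.32%. At TrnT, for threonine, it was 5.83% to 11.4% against 2.71% to 3.75%. The groups were separate at each of these 4 intervals.

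The measures parted at TrnW, for tryptophan. Its read share was 26.9% to 29.3% with Uprt and 26.4% to 27.9% without and was not called (edgeR adjusted p = 0.592). Its conversions per T were 0.280% to 0.549% with Uprt and 0.0572% to 0.0993% without, a log2 odds ratio of 2.35 (edgeR adjusted p = 0.000234). Only 0.0988 T bases of the interval were covered per read, so that nearly all of the T>C reads had their conversion outside it. TrnV, for valine, was not called by either measure, at shares of 15.8% to 34.6% against 6.71% to 19.9%, though its read share passed without replicate 4 of the group lacking Uprt (edgeR adjusted p = 0.0205) and by DESeq2 (adjusted p = 0.0436). At TrnD and TrnG nearly all reads mapped to several places (99.9% at each), and their log2 odds ratios of the read share were 0.20 and 0.19. These 2 calls were lost in 6 of the 10 fits that leave out 1 library and by DESeq2 (adjusted p = 0.205 and 0.190).

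**Figure D4:**
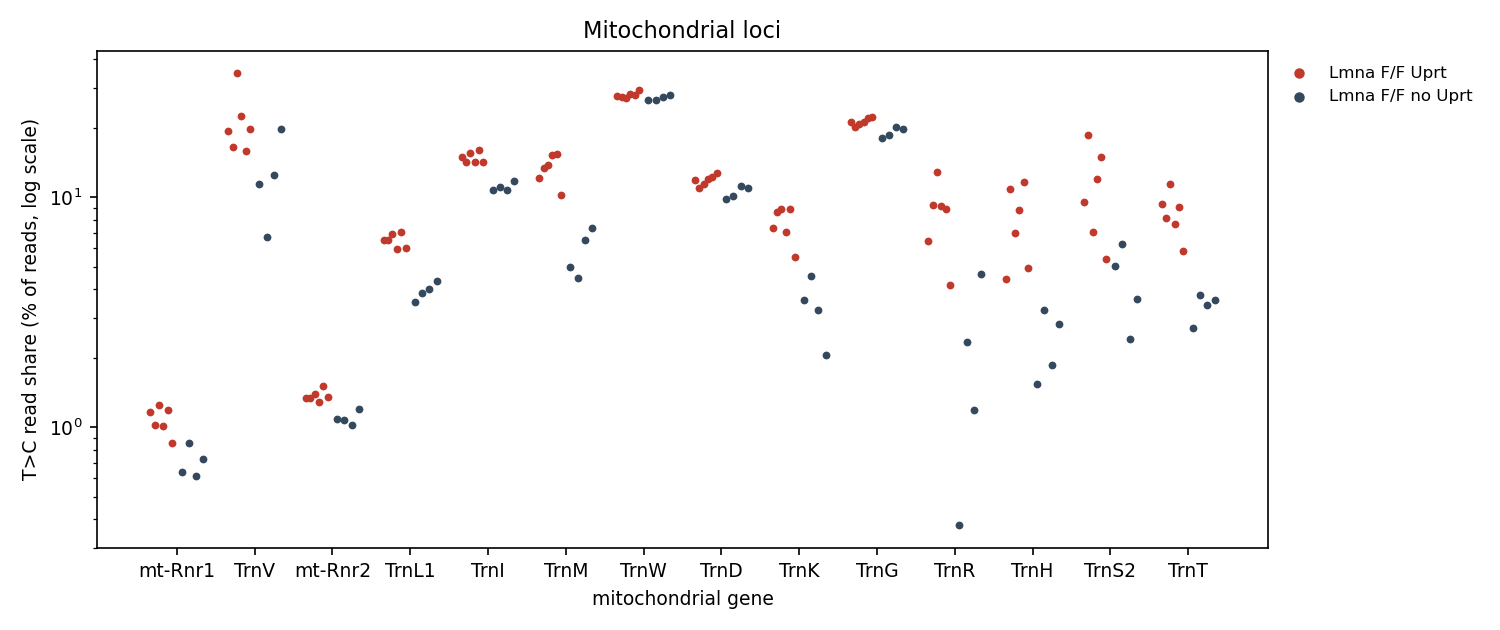
T>C read share (percent of reads, log axis) at the 14 mitochondrial loci tested, in genome order, 1 point per Lmna F/F library. The Uprt libraries lie above those without at mt-Rnr2, TrnL1, TrnI, TrnM and TrnT, and the groups overlap at mt-Rnr1, TrnW and TrnV.

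The 10 loci with the largest rise by log2 odds ratio all had 0 T>C reads in the 4 libraries without Uprt. They were picked from the 12943 loci by that ratio, which a count of 0 enlarges, so their size is a description. A lower bound of the fold sets the pooled share with Uprt against 3 counts over all reads of the 4 libraries. It pools reads, leaves out the spread between mice and covers these libraries alone. At chr15:66475876-66476089 (ENSMUST00000230915.2) 131 of 2842 reads carried a conversion with Uprt and 0 of 1592 without, a pooled lower bound of 24.5-fold. The share was 1.57%, 4.93% and 7.53% in the lowest, median and highest Uprt library (edgeR adjusted p = 0.00046). At chr9:21310712-21310888 70 of 708 reads carried one, against 0 of 443, a pooled lower bound of 14.6-fold. Each of the 6 Uprt libraries had at least 7.46% there.

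At chr17:25318544-25318981 (ENSMUST00000115181.9) 153 of 785 reads carried a conversion with Uprt and 0 of 512 without, a pooled lower bound of 33.3-fold (edgeR adjusted p = 0.00743). Its share was 0 in replicate 4 and 9.43% to 35.4% in the other 5 Uprt libraries. In Lmna +/+ mice the same locus had 15.99% with Uprt and 14.7% without on average, so the difference was not seen there. Of the 10 loci, 6 had every Uprt library above 0 and 4 had a Uprt library at 0. The other 7, with lower bounds of 10.8 to 15.9, were chr7:92730483-92731074, chr7:128295900-128297998, chr2:37268320-37268533, chr6:120406784-120407241, chr5:130277127-130277291, chr1:75512880-75513979 and chr6:117820214-117821479. Each of the 10 rested on at most 153 T>C reads, and only chr15:66475876-66476089 was also called in Lmna +/+ (edgeR adjusted p = 0.0251). All 10 calls held with each library left out in turn, but 5 were lost in females alone (edgeR adjusted p = 0.0546 to 0.170), which are chr17:25318544-25318981, chr7:92730483-92731074, chr2:37268320-37268533, chr6:120406784-120407241 and chr6:117820214-117821479.

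Of the 19 loci called lower, 11 were under 20% in each library without Uprt. At chr8:68809433-68811075 (ENSMUST00000078350.13) the share was 0, 1.15% and 4.26% in the lowest, median and highest Uprt library. Without Uprt it was 2.95%, 11.1%, 11.1% and 17.8% (log2 odds ratio -2.92 ± 0.73, edgeR adjusted p = 0.00602). The ranges overlapped through 1 Uprt library, and the call held with each library left out in turn. At chr11:116536421-116537784 (ENSMUST00000021166.6), the best read of the set, 512 of 40167 reads carried a conversion with Uprt and 546 of 20988 without (log2 odds ratio -0.83 ± 0.28, edgeR adjusted p = 0.029). This call was lost in 5 of 10 fits with 1 library left out, without replicates 1, 4 or 5 of the Uprt group or replicates 2 or 4 of the other (highest adjusted p = 0.0842). At chr11:16921206-16924149 and chr9:118869718-118873066 the groups did not overlap, at 1.94% to 4.95% against 5.55% to 16.9% and 0.345% to 6.99% against 7.50% to 12.3%; the first call held with each library left out and the second was lost in 4 of 10 fits.

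The largest fitted falls rested on few conversions. At chr11:49695779-49698577 2 of 711 reads carried one with Uprt and 18 of 388 without, and 1 of the 4 libraries without Uprt held none. This call (edgeR adjusted p = 0.049) was lost in 7 of 10 fits with 1 library left out, where the log2 odds ratio ran from -5.61 to -2.50. At chr6:48546875-48546885, an interval of 11 bases, the counts were 2 of 2611 and 14 of 1698, conversions per T gave no call (edgeR adjusted p = 1), and the call by read share was lost in 3 of 10 fits. The others were chr19:21914744-21915745, chr6:124507304-124507902, chr10:76544626-76545392 and chr9:18233247-18234729, each with overlapping groups. With 1 library left out, the call at chr19:21914744-21915745 held in all 10 fits, while those at chr6:124507304-124507902, chr10:76544626-76545392 and chr9:18233247-18234729 were lost in 6, 2 and 7 of them. The call at chr19:21914744-21915745 was lost with all 21 libraries in the fit (edgeR adjusted p = 0.0705). It was also lost without replicates 1 and 2 lacking Uprt (edgeR adjusted p = 0.120), and conversions per T gave no call there (edgeR adjusted p = 0.0727).

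The Lmna +/+ mice offer the same contrast in other animals, 8 with Uprt against 3 without, all 3 male. There the odds of conversion rose at 3090 of the same 12943 loci (23.9%) and fell at 8 (0.0618%) by edgeR. Of the loci called in the deleted hearts, 2443 were also called in Lmna +/+, which is 45.2% of the Lmna F/F calls and 79.1% of the Lmna +/+ calls. The loci called higher in Lmna F/F had a log2 odds ratio above 0 in Lmna +/+ in 97.2% of cases, beside 87.6% of all loci tested, with a median of 1.37 beside 1.09. Across the 12943 loci, which share their libraries and are not independent, the log2 odds ratios of the genotypes had a Pearson r of 0.36. Of the 19 loci called lower, 9 were below 0 in Lmna +/+, where 87.6% of all loci tested were above 0. The others of the 19 were not below 0 there. A call as lower was made there at 1 of the 19, beside 0.0618% of all loci tested.

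Whether the transgene raised labelling by a different amount in deleted hearts was tested directly. On all loci the gain was 1.46 percentage points in Lmna F/F and 1.35 in Lmna +/+, a difference of 0.114 points (exact permutation p = 0.743 over 105105 relabellings, n = 6, 4, 8 and 3). On nuclear loci the gains were 1.77 and 1.86 points (exact permutation p = 0.831). On mitochondrial loci they were 0.661 and 0.00276 points, a difference that also missed the threshold (exact permutation p = 0.315). This test had no sex term and the Lmna +/+ no Uprt mice were all male, so sex is not separated from genotype there. Lmna F/F males had mitochondrial shares of 4.07% and 4.68% with Uprt against 4.01% and 4.76% without. Lmna +/+ males had 4.09% to 5.37% with Uprt against 4.15% to 5.11% without. By conversions per T, the mitochondrial gains were alike, at 0.0154 points in Lmna F/F and 0.0155 in Lmna +/+ (exact permutation p = 0.989). Per locus, 0 of 12449 (0%) passed an adjusted p under 0.05 in edgeR's interaction test, with 707 at an unadjusted p under 0.05 and a smallest adjusted p of 0.616. DESeq2 called 2, and edgeR 4, all higher in Lmna F/F, without replicate 1 of Lmna +/+ no Uprt. In simulated libraries of this design the interaction test recovered 12% of true log2 changes of 2 and 0% of those of 1, so smaller differences could not be seen.

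The level of all reads was compared to see whether mice with and without the transgene differed beyond labelling. In a fit of all 21 libraries, 7 of 31182 loci were higher with Uprt in the deleted hearts (0.0224%) and 4 lower (0.0128%) by edgeR at an adjusted p under 0.05, with 3479 at an unadjusted p under 0.05. DESeq2 called 117 loci, and library size alone as the scale gave 4 higher and 6 lower. The count depended on single libraries. It was 93 without replicate 3, 65 without replicate 4, 5 without replicate 1 and 4 without replicate 2 of the mice lacking Uprt. Without replicates 6, 3 or 4 of the Uprt group it was 22, 6 and 6. The median log2 fold change over all loci was 0.01. At the loci called higher in T>C share it was 0.00, with quartiles of -0.16 and 0.15, and 2 of the 5402 were called in level. The rise in T>C share was thus not matched by a rise in reads. The interaction of level with Lmna genotype was called by edgeR at 0 of 31182 loci (0%); before adjustment 2198 had p under 0.05.

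The clearest level difference was at chr13:73465963-73466262. It had 139, 170 and 187 CPM (counts scaled to library size) in the lowest, median and highest Uprt library and 1.52, 2.03, 1.88 and 2.20 CPM without Uprt (log2 fold change 6.44 ± 0.84, edgeR adjusted p = 0.000435). In Lmna +/+ all 8 Uprt libraries had 128 to 180 CPM, and those without had 1.42, 154 and 2.18 CPM. A library without Uprt could thus hold the high level, and 23.3% of reads there mapped to several places. Counts of T>C reads at this locus gave a log2 odds ratio of 0.97 (edgeR adjusted p = 0.028). The Lmna F/F libraries without Uprt held 326 reads there in all, against 41596 in those with it. The read minimum is a mean over both groups and was met through the Uprt libraries alone. The background share at this locus thus rests on few reads, and no conclusion on labelling is drawn from this call.

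Of the 11 loci called in level, 4 lie on chromosome 17, which holds 4.18% of the loci tested. At chr17:36427089-36428013 the level was 1.88 to 4.28 CPM with Uprt, while 2 reads in all were seen without it, in replicate 2 (log2 fold change 7.52 ± 0.87, edgeR adjusted p = 9.53e-05). In Lmna +/+ libraries without Uprt it had 0.0273, 1.39 and 0.0642 CPM. At chr17:36348325-36349327 it was 1.74 to 2.62 CPM against 0.190 to 0.582 (log2 fold change 2.67 ± 0.48). At chr17:34534862-34535648 it was lower with Uprt, at 22.6 to 61.1 CPM against 197, 81.5, 86.7 and 226 (log2 fold change -1.94 ± 0.28, edgeR adjusted p = 0.00179), and its T>C share did not differ (log2 odds ratio -0.05, edgeR adjusted p = 0.912). The fourth, chr17:57058325-57058411, was higher by 0.80 ± 0.14.

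The other loci changed by less. At chr3:126241392-126241599 the level was 63.5 to 97.1 CPM with Uprt and 165 to 210 without (log2 fold change -1.08 ± 0.17, edgeR adjusted p = 0.00928). In Lmna +/+ without Uprt it had 150, 69.0 and 186 CPM, against 68.2 to 95.1 with it. Loci chr13:95738311-95740240 and chr3:68937576-68937765 were also lower, by -1.13 ± 0.20 and -1.14 ± 0.21, and chr12:84352700-84352909 and chr16:29416404-29416514 higher, by 1.35 ± 0.26 and 0.88 ± 0.17. The groups overlapped at chr16:29416404-29416514, while they were separate at the other 10. Over all loci tested in level, 0.949% had every Uprt library above and 0.933% every one below each library without Uprt. The remaining called locus, chr8:15175117-15175222, had under 1 CPM in each Lmna F/F library. None of the 11 was called in Lmna +/+. There the log2 fold change had the opposite sign at chr8:15175117-15175222 (-0.28) and chr13:95738311-95740240 (0.06), and the same sign at the others. The Lmna +/+ groups were separate at chr17:34534862-34535648, at 11.6 to 31.1 CPM with Uprt against 47.2 to 61.5 without. They were also separate at chr17:36348325-36349327, at 1.33 to 3.68 CPM against 0 to 0.983, and at chr17:36427089-36428013, at 1.69 to 3.43 CPM against 0.0273 to 1.39. The calls at chr13:73465963-73466262, chr17:36427089-36428013, chr17:34534862-34535648 and chr3:126241392-126241599 held with each Lmna F/F library left out in turn, while the other 6 of at least 1 CPM were lost in 4 to 7 of the 10 fits. With replicates 1 and 2 lacking Uprt both left out, chr13:73465963-73466262 and chr3:126241392-126241599 lost their calls too (edgeR adjusted p = 0.0735 and 0.150).

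**Figure D5:**
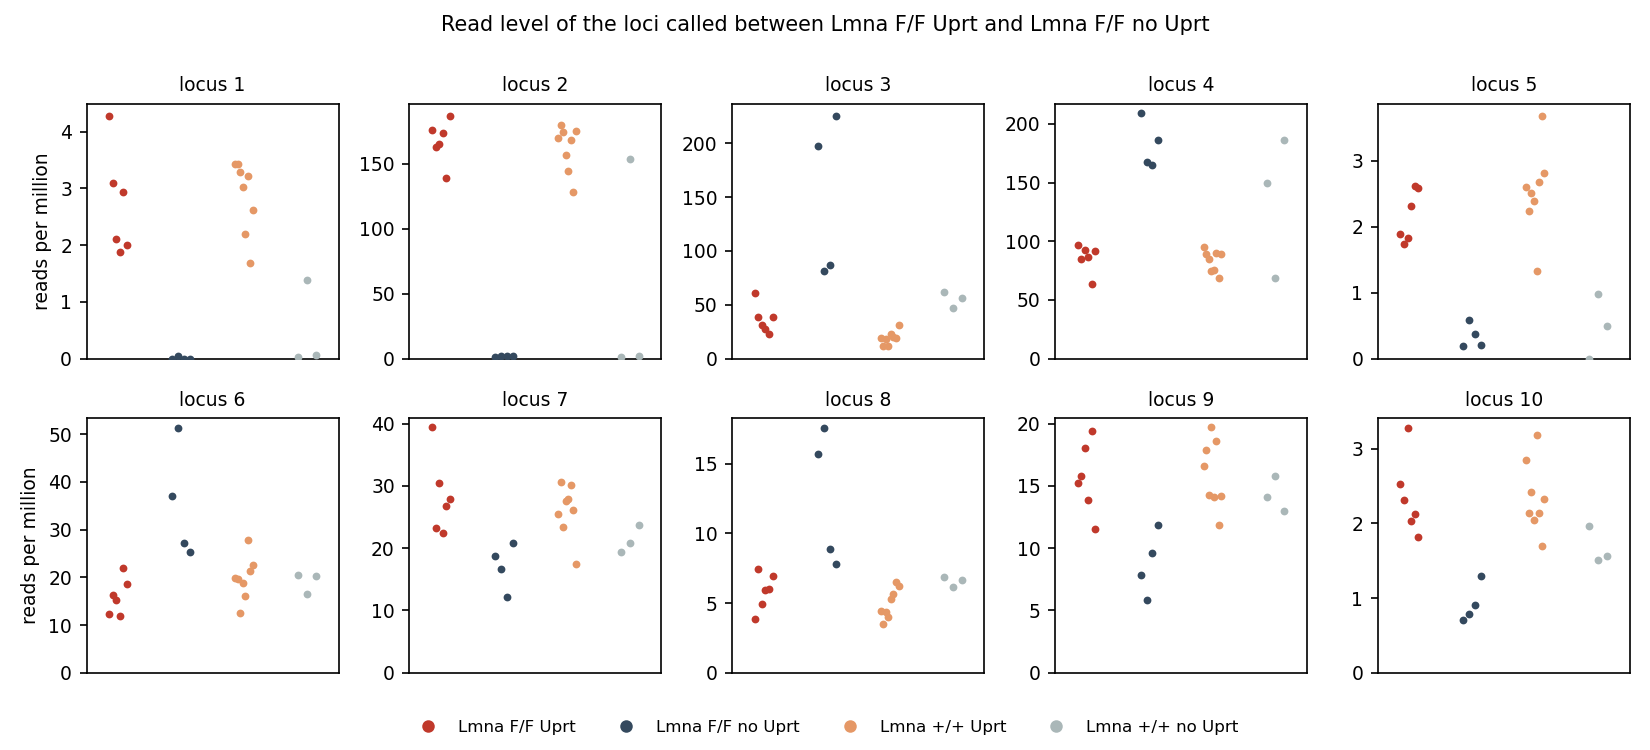
Level (CPM) at the 10 loci called in level with at least 1 CPM, 1 point per library in all 4 groups, ordered by adjusted p; loci 1 to 4 are chr17:36427089-36428013, chr13:73465963-73466262, chr17:34534862-34535648 and chr3:126241392-126241599. At loci 2 and 4 a single Lmna +/+ no Uprt library lies within the range of the Uprt libraries, and at locus 1 a single one, at 1.39 CPM, lies just below them.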

How the data were processed

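Iodoacetamide at 12 mM alkylated 1.5 µg of RNA, and QuantSeq 3′ libraries were sequenced as single reads of 100 bases, per the labels' protocols. The deposited table holds counts per 3′ UTR interval and library, per the file headers: reads, T>C reads, multimapped reads, read bases over T and conversions at them. Positions are on mm39, per the submitters' processing notes; the sources used here do not give aligner settings, annotation release or any filter of sequence variants. Its CPM column was not used, and 0 columns of outside samples were present. Total counts (33830412 to 46957455 reads) limit the precision of each locus.

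Tests per locus used edgeR 4.0.16 under R 4.3.3 (quasi-likelihood, Benjamini-Hochberg, 0.05). The odds test took converted and unconverted counts of each library with effects for library, sex and Uprt, at a mean of at least 100 reads. The level test used filterByExpr (minimum count of 10), TMM, group means and sex in 21 libraries. A standard error is the change over the square root of F. Library values were compared by two-sided exact permutation, adjusted over 9 comparisons. Replicate pairs differed by at least 30.5 times the sampling variance, so each library counts as its own sample.

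On simulated counts the share test recovered 42% of 200 true log2 changes of 2, 73.6% of 5000 such changes, and 0% of 200 changed by 1 (12943 loci). The test per T found 73.5% of 5000 changed by 2 and 0.5% of 200 changed by 1 (12939 loci). In these runs the 200 changed in both directions amid unchanged loci, whereas 5402 real loci were called higher by share. The figures for 200 therefore do not give the power on the real data, where mt-Rnr2 was called at a log2 odds ratio of 0.35. The level test found 65.5% of 200 changed by 1 (30020 loci).

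Named loci are the 10 called with the largest change in each direction, under 20% T>C without Uprt or at 1 CPM or more. The 20 most read nuclear loci and the mitochondrial ones were added, and the well-read loci of large or small difference were chosen after their values were seen. Members and lists were chosen with earlier results of these data known. The supplied table paired 0 transcript IDs with names, so gene lists, cell type markers and Lmna were not run. Alternatives were DESeq2 1.42.0 as test or scale, other read minimums, no sex term, other sets of libraries or loci, summed intervals, and each library left out; 5 were chosen after seeing the data.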

Additional observations from a re-analysis of the deposited data

Results flagged for a closer look

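In 138 groups of 4 or 6 values at the named loci and libraries, 16 held a value that stood far from the others of its group; chance gives such a value in about 1 of 20 groups. No library-wide share or conversion rate was among them.

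In the Uprt mice replicate 5 was highest at 4 loci, with 21.3% T>C reads at chr9:21310712-21310888 (others 7.46% to 9.65%), 4.35% at chr4:130209019-130209256 (others up to 2.94%), 1.79% at chr14:55179378-55179437 (others up to 1.30%) and 3.93% at chr9:50667592-50667936 (others up to 3.33%). The same replicate had the lowest level at chr3:126241392-126241599, with 63.5 CPM against 85.2 to 97.1 CPM. Replicate 1 had 26.9% at chr7:92730483-92731074 (others up to 9.38%) and 9.41% at chr10:76544626-76545392 (others up to 2.22%). Replicate 3 had 34.6% at TrnV (others up to 22.6%). Replicate 6 had 2.08% at chr11:49695779-49698577, where the others were at 0, and 4.26% at chr8:68809433-68811075 (others up to 1.51%).

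In the mice without Uprt replicate 3 had 13.3% at chr1:135779811-135779998 (others up to 0.850%), 1.01% at chr9:110598483-110598862 (others up to 0.901%) and 0.0244 CPM at chr8:15175117-15175222, where the others were at 0. Replicate 1 had 3.98% at chr17:40157244-40159092 (others up to 3.76%) and the lowest value, 1.52%, at chr8:69357159-69359586 (others from 10.9%). Replicate 2 had 0.0506 CPM at chr17:36427089-36428013, where the others were at 0.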

How the results depend on the processing

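Among females alone (4 against 2, where no exact p below 0.133 is possible) the differences were 1.56 percentage points in T>C share, 0.0773 points in conversions per T and 0.0209 conversions per T>C read (exact permutation p = 0.4 for the last). Among males alone (2 against 2, no p below 0.333) they were 1.40, 0.0797 and 0.108. On mitochondrial loci alone the differences in share and in conversions per T>C read were 0.661 points and 0.0222, without a call. With 1 library left out the ranges were 1.38 to 1.62 points, 0.0730 to 0.0832 points and 0.0494 to 0.0755 conversions per T>C read. The genotype difference of the share ran from -0.0185 to 0.358 points and was called in no fit.

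The count of loci called by share, higher or lower, was 5421 and ran from 4366 to 5443 with 1 library left out. It was 3331 in females alone, where fewer libraries entered. It stayed within 1.5 times under the other 10 settings, which include the removal of loci with few T bases per read (5405) or many multimapped reads (4981). Per T the count of 5673 ran from 4617 to 5670 and fell to 3707 at 500 reads, where 5824 loci were tested. The count of level calls was 11 and ran from 4 to 93 with 1 library left out. It was 117 by DESeq2, 598 without a filter on low counts (of 64424 loci), 5 in the 10 Lmna F/F libraries alone, 3 without replicates 1 and 2 lacking Uprt and 4 without chromosome 17. The cause was not tested. The genotype interaction was called at 0 loci, at 2 by DESeq2 and at 0 to 4 with 1 library left out. No named locus reversed its direction under a setting that called it. No paired analysis was possible because replicate numbers only follow accession order and name no shared litter or day.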
